A study of Homo sapiens with 60 samples.

Results

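Laminin chains and collagen XXVII, 7 genes in all, were followed through HCT116 spheroids, small clusters of a human colorectal cancer cell line. The genes were LAMA5 and LAMA3 (alpha chains), LAMB1, LAMB2 and LAMB3 (beta chains), LAMC1 (a gamma chain) and COL27A1. They are 7 of the 29744 genes in the deposited table, and all 7 were among the 11298 genes that passed a filter on low counts. They were picked by symbol because LAMA5 and COL27A1 had less RNA in Medium 2 than in Medium 1. The difference of these 2 genes between the media is therefore given below as a description without a test. Tests are given for the other 5 genes between the media of exposed spheroids, and for their responses to the compounds. All 7 genes were also tested between 2 related compounds.

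The spheroids fell into 12 groups of 5 libraries, 6 in Medium 2 and 6 in Medium 1, as the labels name the media. In either medium, spheroids received 1 µM butyrate, 0.1 µM hemin, 1 µM kynurenine, 1 µM kynurenic acid, hemin combined with kynurenine (labelled 1 µM, with no separate dose of hemin) or nothing, the compounds being present between day 1 and day 8. All groups shared the cell line, the agarose microwells in which spheroids formed, and high-glucose DMEM with serum as culture medium. The design text of the series states that RNA was taken either directly or after 3 h in a medium poor in nutrients, and the labels do not tie Medium 2 or Medium 1 to either of these. The sample characteristics give the same entry, untreated and nutrient-rich, for every sample of both media, exposed ones included. The model is a single tumour line without stromal cells, and the labels call the 5 samples of a group biological replicates without saying whether they came from separate cultures, so each p-value measures only the spread between the samples of this series.

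Laminins are cross-shaped proteins of 1 alpha, 1 beta and 1 gamma chain that polymerise into the sheet of the basement membrane on which epithelial cells rest. They bind cells through integrins and dystroglycan, and in the intestine the alpha-5 chain is a main laminin chain of the adult epithelial basement membrane. Collagen XXVII is a fibrillar collagen best known from cartilage, where it takes part in the growth of long bones.

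Libraries were 3'-end counts of transcripts with molecular identifiers, so 1 count stands for about 1 transcript end whatever the length of the gene. Totals ran from 1346135 to 2981625 counts in Medium 2 libraries and from 1417045 to 3083231 in Medium 1 libraries. Levels are given as CPM, counts as a share of the library total after TMM scaling, on a scale of 1e6, which sets libraries to a common size. Of 7 markers of colorectal epithelium, EPCAM averaged 377 CPM in Medium 2 and 366 in Medium 1, KRT8 249 and 221, KRT18 250 and 246, CDH1 74 and 61.9, CDX2 32.6 and 27.4 and KRT19 335 and 391, and VIL1 had a count of 0 in every library. The 9 markers of fibroblasts, endothelium and immune cells summed to between 0 and 3.93 CPM in Medium 2 libraries and between 0 and 4.28 CPM in Medium 1 libraries, with LUM at 0 throughout and 1 count of DCN in all. Medium 2 libraries lay in wells G4 to D8 of the plate and Medium 1 libraries in A1 to F4, column by column, so medium and plate position cannot be told apart. An earlier look at these data placed the libraries of wells B2 (butyrate, Medium 1) and A7 (kynurenine, Medium 2) far from their groups, and values without them are given where they touch a result. In these bulk samples, fewer cells that express a gene and less RNA per cell cannot be told apart either.

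LAMA5 encodes the laminin alpha-5 chain. The gene lies on the minus strand at chr20:62307955-62367312 (GRCh38, GENCODE v29), spans 59358 bp and has 80 exons in its longest coding transcript, which encodes 3695 amino acids. COL27A1 lies on the plus strand at chr9:114155560-114312511, spans 156952 bp and has 61 exons for a chain of 1860 amino acids. The promoters of both genes are shown because their RNA moved together between the media. That of LAMA3 is shown as an alpha chain whose averaged difference between the media did not pass the threshold. Each is 300 bases long, with 250 bases before the annotated start and 50 after, 5′ to 3′ on the gene's strand, from RefSeq (GRCh38.p14, in which all 7 genes matched by symbol). Capitals mark every match, on either strand, to GGGCGG (the GC box bound by SP1-type factors) or TGANTCA (AP-1). The windows are chr20:62367263-62367562 (minus strand) for LAMA5, chr9:114155287-114155586 (plus strand) for COL27A1 and chr18:23872770-23873069 (plus strand) for LAMA3, the last inside the annotated span of its gene.
LAMA5 promoter: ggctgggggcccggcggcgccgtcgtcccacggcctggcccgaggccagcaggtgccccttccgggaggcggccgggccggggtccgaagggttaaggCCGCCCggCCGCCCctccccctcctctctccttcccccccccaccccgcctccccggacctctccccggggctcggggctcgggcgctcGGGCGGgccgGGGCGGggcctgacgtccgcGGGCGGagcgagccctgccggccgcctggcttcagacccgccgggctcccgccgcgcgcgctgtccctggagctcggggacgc
COL27A1 promoter: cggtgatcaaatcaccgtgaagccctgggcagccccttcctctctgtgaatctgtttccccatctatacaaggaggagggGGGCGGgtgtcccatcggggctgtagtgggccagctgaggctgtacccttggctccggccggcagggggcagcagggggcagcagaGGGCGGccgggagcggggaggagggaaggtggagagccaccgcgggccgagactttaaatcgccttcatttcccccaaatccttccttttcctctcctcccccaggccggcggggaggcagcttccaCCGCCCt
LAMA3 promoter: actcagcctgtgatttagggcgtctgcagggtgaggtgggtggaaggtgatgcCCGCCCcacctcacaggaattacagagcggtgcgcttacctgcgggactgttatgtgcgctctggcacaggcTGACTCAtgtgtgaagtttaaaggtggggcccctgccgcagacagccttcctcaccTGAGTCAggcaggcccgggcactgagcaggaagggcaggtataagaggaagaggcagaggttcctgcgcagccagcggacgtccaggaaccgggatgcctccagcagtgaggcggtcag
The LAMA5 window held 5 GC boxes and was 82.7% G and C, more than in 99.1% of promoters. The COL27A1 window held 3 GC boxes at 65.7% G and C, more than in 68.7% of promoters. The LAMA3 window held 1 GC box and 2 AP-1 matches at 61.7%, more than in 57.7% of promoters. No capital stands for the cyclic AMP element TGACGTCA, the E-box CACGTG or TATAAA, which were searched on both strands and not found in these windows. Of 35116 RefSeq promoters of this length, 45% held GGGCGG, 7.71% TGANTCA, 1.85% TGACGTCA, 7.26% CACGTG and 11.5% TATAAA. No motifs searched overlap each other in these windows. Of the windows not shown, that of LAMB1 held 4 GC boxes at 71% G and C, more than in 81.9% of promoters. That of LAMC1 held 3 at 79%, more than in 96.3% of promoters. The LAMB2 window held 1 at 58.7%, and each LAMB3 window held 1. The LAMB3 window at chr1:209651325-209651624 also held 1 AP-1 match. A relation of these motifs to the RNA levels was not tested.

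LAMA5 RNA was several-fold lower in Medium 2 than in Medium 1 with every treatment. In untreated spheroids it stood at 16.6, 5.4, 11, 11.2 and 8.66 CPM in Medium 2, against 53.1, 40.7, 57.5, 53.9 and 47.2 CPM in Medium 1, a log2 fold change of -2.24. The highest Medium 2 library was below the lowest of Medium 1 (4.46% of tested genes were separated in that way there).

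The exposed libraries, which also belong to the comparison that chose LAMA5, lay in the same direction. With butyrate, LAMA5 had 15.2, 10.8, 13.7, 11.6 and 9.23 CPM in Medium 2 and 46.1, 28.2, 37.5, 32.2 and 30.3 CPM in Medium 1. With hemin it had 16.8, 7.95, 14.8, 13.5 and 6.48 CPM in Medium 2 and 32.8, 38.1, 39.2, 22.6 and 44 CPM in Medium 1. In both pairs the groups did not overlap, and the hemin pair came closest, with 16.8 CPM as the highest Medium 2 value and 22.6 CPM as the lowest of Medium 1. With kynurenine it had 12.5, 7.72, 11.6, 1.95 and 15.6 CPM in Medium 2 and 48.4, 35.4, 52.8, 42 and 40 CPM in Medium 1, and the 1.95 CPM of well A7 rested on 3 counts. With kynurenic acid it had 10.6, 9.85, 12.2, 7.85 and 8.03 CPM in Medium 2 and 42.3, 42.4, 25.2, 48.3 and 41.7 CPM in Medium 1. Here too every Medium 2 library lay below every library of Medium 1. With hemin and kynurenine together it had 7.17, 10.1, 7.46, 8.84 and 7.97 CPM in Medium 2 and 34.1, 31.1, 43.2, 38.2 and 38 CPM in Medium 1, again without overlap.

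The log2 fold changes of LAMA5 between Medium 2 and Medium 1 were -1.53 with butyrate (SE 0.23), -1.56 with hemin (SE 0.24) and -2.11 with kynurenine (SE 0.24). They were -2.05 with kynurenic acid (SE 0.24) and -2.14 with hemin and kynurenine (SE 0.23). Averaged over the 5 exposures, LAMA5 stood at 10.4 ± 3.43 CPM in Medium 2 and 38.2 ± 7.42 CPM in Medium 1 (SD, n = 25 each), a log2 fold change of -1.88 (SE 0.11). Without the libraries of wells B2 and A7 it was -1.85, and with kynurenine -1.87. Among the tested genes, 35 had a larger fall in this average.

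**Figure D1:**
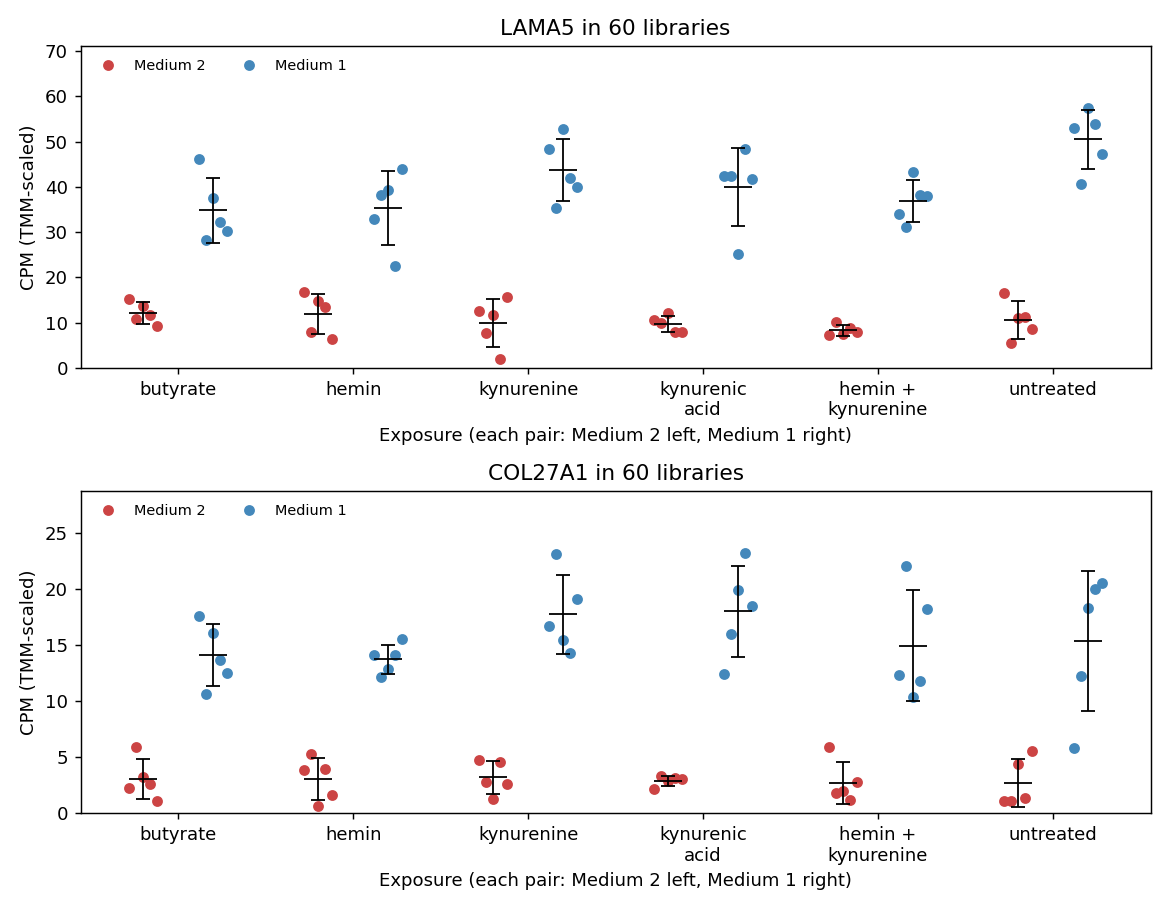
LAMA5 (upper panel) and COL27A1 (lower panel) in CPM in each of 60 libraries, by exposure, with Medium 2 left of Medium 1 in each pair and bars for the mean ± SD of 5 libraries. In exposed spheroids the Medium 2 points of LAMA5 lie at or below 16.8 CPM and those of Medium 1 at or above 22.6 CPM, and for COL27A1 at or below 5.9 CPM and at or above 10.4 CPM.

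COL27A1 behaved in the same way at a lower level. In untreated spheroids it stood at 1.07, 1.08, 4.4, 1.32 and 5.57 CPM in Medium 2, against 5.85, 12.2, 18.3, 20 and 20.5 CPM in Medium 1, a log2 fold change of -2.49. The groups were separated by a narrow gap, between 5.57 CPM in Medium 2 and 5.85 CPM in well A1 of Medium 1.

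With butyrate, COL27A1 had 2.25, 5.9, 3.26, 2.58 and 1.09 CPM in Medium 2 and 17.6, 10.6, 16.1, 13.7 and 12.5 CPM in Medium 1. With hemin it had 3.81, 5.3, 0.671, 3.93 and 1.62 CPM in Medium 2 and 14.1, 12.1, 12.9, 14.1 and 15.5 CPM in Medium 1. Neither pair overlapped, although the Medium 2 values rest on few counts, 5, 8, 1, 7 and 2 in the hemin libraries. With kynurenine it had 4.78, 2.76, 1.29, 4.55 and 2.6 CPM in Medium 2 and 16.7, 23.1, 15.4, 14.3 and 19.1 CPM in Medium 1. With kynurenic acid it had 2.12, 3.28, 2.86, 3.14 and 3.01 CPM in Medium 2 and 12.4, 16, 19.9, 23.2 and 18.5 CPM in Medium 1. The kynurenic acid libraries of Medium 2 lay close together, and those of Medium 1 were spread from 12.4 to 23.2 CPM. With hemin and kynurenine together it had 5.9, 1.8, 1.96, 1.15 and 2.81 CPM in Medium 2 and 12.3, 22, 10.4, 11.8 and 18.2 CPM in Medium 1, also without overlap.

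The log2 fold changes of COL27A1 between Medium 2 and Medium 1 were -2.18 with butyrate (SE 0.36), -2.11 with hemin (SE 0.38) and -2.51 with kynurenine (SE 0.36). They were -2.62 with kynurenic acid (SE 0.37) and -2.45 with hemin and kynurenine (SE 0.35). Over the exposures COL27A1 stood at 2.98 ± 1.46 CPM in Medium 2 and 15.7 ± 3.72 CPM in Medium 1 (SD, n = 25 each), a log2 fold change of -2.38 (SE 0.16), and 16 tested genes had a larger fall. Without wells B2 and A7 that average was -2.42. Counts ran from 1 to 14 in Medium 2 libraries and from 12 to 52 in Medium 1 libraries, untreated ones included. COL27A1 thus passed the filter on low counts mainly through Medium 1, where it was higher.

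All 25 exposed Medium 2 libraries lay below all 25 exposed Medium 1 libraries for LAMA5 and for COL27A1, a separation shared by 20 of the 11298 tested genes (0.177%). With the untreated libraries added, 30 against 30, LAMA5 was among the 17 genes (0.15%) that remained separated. COL27A1 was not, since 28 of its 30 Medium 2 libraries were below the lowest Medium 1 library. Both counts hold the libraries that chose the 2 genes and are a description. Within single exposures, Medium 2 lay wholly below Medium 1 for both genes and no other of the 7, except LAMB1 with kynurenic acid, where the highest Medium 2 library had 19.1 CPM and the lowest of Medium 1 had 19.4 CPM. The share of all tested genes separated in that direction was 3.65% with butyrate, 5.28% with hemin, 3.37% with kynurenine, 3.73% with kynurenic acid and 5.3% with hemin and kynurenine.

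In the order of the 12 group means, LAMA5 had 1 step larger than the spread of its neighbours, between butyrate in Medium 2 at 12.1 ± 2.36 CPM and butyrate in Medium 1 at 34.9 ± 7.17 CPM (SD, n = 5). From there its Medium 1 means went up through hemin, hemin with kynurenine, kynurenic acid and kynurenine to untreated at 50.5 ± 6.59 CPM, each step within the larger SD of its neighbours. COL27A1 likewise had 1 such step, between kynurenine in Medium 2 at 3.2 ± 1.46 CPM and hemin in Medium 1 at 13.7 ± 1.3 CPM (SD, n = 5). For LAMB1 it lay between butyrate in Medium 2 at 16.8 ± 1.88 CPM and hemin with kynurenine in Medium 1 at 20.5 ± 1.46 CPM (SD, n = 5), with the Medium 2 groups untreated and hemin with kynurenine above it. LAMA3, LAMB2, LAMB3 and LAMC1 had no step beyond the spread.

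The other 5 laminin chains differed less between the media, and 3 of them fell when the exposures were averaged. LAMA3 encodes the alpha-3 chain, part of the epithelial laminin-332 (chr18:23689443-23956222, plus strand, 75 exons). Its exposed libraries ran from 0.671 to 8.4 CPM with a median of 2.82 in Medium 2, and from 1.52 to 11.8 CPM with a median of 3.43 in Medium 1. The groups overlapped with every treatment, and the averaged log2 fold change was -0.24 (95% interval -0.72 to 0.23, adjusted p = 0.425 in an edgeR quasi-likelihood F-test, adjusted by Benjamini-Hochberg over all 11298 genes as everywhere here). Values by exposure were spread from -1.09 with kynurenic acid to 0.73 with butyrate, and none passed.

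LAMB1 encodes the beta-1 chain, a partner of alpha-5 in laminin-511 (chr7:107923799-108003255, minus strand, 32 exons). Its exposed libraries ran from 9.11 to 26.2 CPM with a median of 16.5 in Medium 2, and from 12.5 to 34.9 CPM with a median of 22.4 in Medium 1. The averaged log2 fold change was -0.46 (adjusted p = 5.58e-05, SE 0.09), and with hemin alone it was -0.90 (adjusted p = 0.00163, SE 0.22). With kynurenine it was -0.64 (adjusted p = 0.0434), which no longer passed once the library of well A3, C3, D3, G6, A7 or B7 was left out (adjusted p 0.0711 to 0.165) and under 5 of 8 other settings (0.0569 to 0.234). With hemin and kynurenine together LAMB1 had a value of 0.06 (adjusted p = 0.871).

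LAMB2 encodes the beta-2 chain, known from basement membranes of muscle, nerve endings and the kidney (chr3:49121114-49133118, minus strand, 33 exons). Its exposed libraries ran from 4.55 to 19.1 CPM with a median of 7.32 in Medium 2, and from 6 to 16.7 CPM with a median of 12.1 in Medium 1. The averaged log2 fold change was -0.53 (adjusted p = 0.000583, SE 0.13). No single exposure passed, with values from -0.64 to -0.44, all of 1 sign. LAMB3, the beta-3 chain of laminin-332 (chr1:209614870-209652466, minus strand, 22 exons), averaged 18.8 ± 6.57 CPM in Medium 2 and 18.8 ± 5.29 CPM in Medium 1 (SD, n = 25 each). Its averaged log2 fold change was -0.02 (95% interval -0.25 to 0.21, adjusted p = 0.906), with values from -0.73 with butyrate (adjusted p = 0.0602) to 0.38 with hemin and kynurenine (adjusted p = 0.311). The butyrate value did pass without the library in well A2 or E5 (adjusted p 0.0483 and 0.0261) and with scaling by library totals alone (0.0317).

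LAMC1 encodes the gamma-1 chain, shared by most laminins (chr1:183023460-183145592, plus strand, 28 exons). Its exposed libraries ran from 23.3 to 52.4 CPM with a median of 35.2 in Medium 2, and from 29.9 to 57.3 CPM with a median of 40 in Medium 1. The averaged log2 fold change was -0.30 (adjusted p = 0.00071, SE 0.07). With kynurenine it was -0.51 (adjusted p = 0.0467), which no longer passed once the library of well A3, B3, C3, D3, G6, H6 or A7 was left out (adjusted p 0.0551 to 0.137) and under 6 of 8 other settings (0.0509 to 0.154). In untreated spheroids LAMC1 averaged 36.1 ± 3.81 CPM in Medium 2 and 35.7 ± 6.08 CPM in Medium 1 (SD, n = 5 each).

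**Figure D2:**
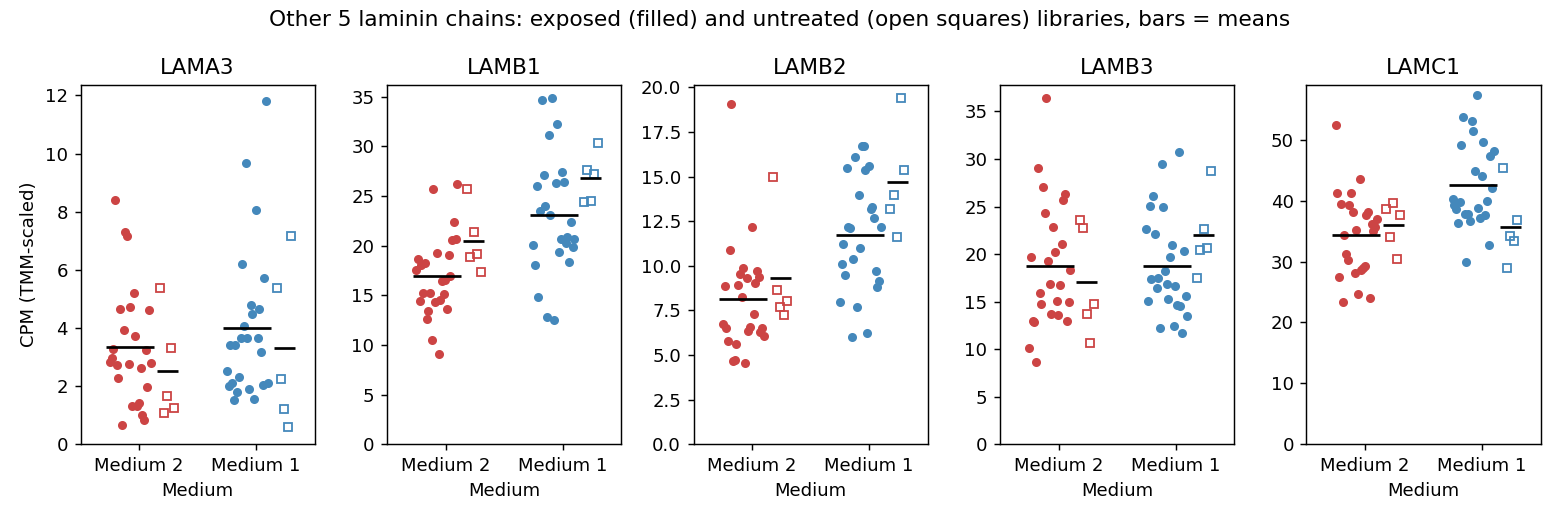
LAMA3, LAMB1, LAMB2, LAMB3 and LAMC1 in CPM per library, with Medium 2 left of Medium 1, exposed libraries as filled circles, untreated ones as open squares, and bars for the means. The media overlap in each panel, with averaged log2 fold changes over the exposures from -0.53 for LAMB2 to -0.02 for LAMB3.

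Of these other 5 genes, 3 were lower in Medium 2 over the averaged exposures and 0 were higher, where 21.8% of all tested genes were lower and 21.7% higher. By exposure, 0 were lower with butyrate, where 5.37% of all tested genes were, 1 with hemin (11.4%), 2 with kynurenine (4.28%), 0 with kynurenic acid (4.26%) and 0 with hemin and kynurenine (8.32%). Both kynurenine calls were lost with limma voom and without any 1 of the libraries in wells A3, C3, D3, G6 and A7. At an unadjusted p under 0.05 there was 1 gene with butyrate, 3 with kynurenic acid and 0 with hemin and kynurenine, and DESeq2 and limma voom each called 0 with these 3 exposures.

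**Figure D3:**
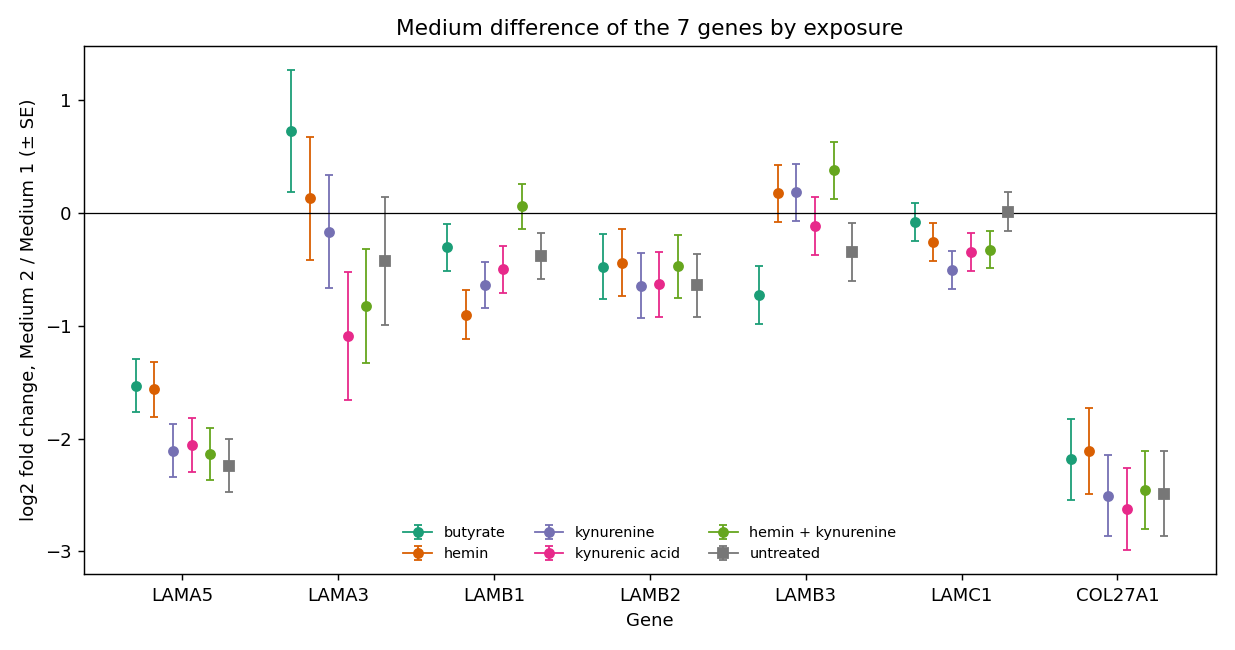
Log2 fold change of Medium 2 over Medium 1 (± SE) for the 7 genes with each of 5 exposures (circles) and in untreated spheroids (squares). LAMA5 and COL27A1 were chosen for their fall and are a description. LAMA5 runs from -2.24 to -1.53 and COL27A1 from -2.62 to -2.11, and the other 5 genes lie between -1.09 and 0.73.

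Summed by chain type over all 30 libraries of a medium, the alpha chains LAMA3 and LAMA5 came to 13.6 ± 4.42 CPM in Medium 2 and 44.1 ± 8.71 CPM in Medium 1 (SD, n = 30). The beta chains LAMB1, LAMB2 and LAMB3 came to 44.4 ± 10.3 CPM in Medium 2 and 55.3 ± 11.1 CPM in Medium 1. The gamma chain LAMC1 stood at 34.7 ± 6.44 CPM in Medium 2 and 41.4 ± 7.23 CPM in Medium 1. LAMA5 made up 11.2% ± 3.29 of the counts of these 6 laminin chains in Medium 2 and 28.6% ± 4.65 in Medium 1. These sums hold the libraries that chose LAMA5 and are a description. They also leave out measured chains beyond the 7 genes, so the sums and the share depend on the chains listed. Over the same libraries LAMA2, an alpha chain, averaged 34.3 CPM in Medium 2 and 24.9 CPM in Medium 1. LAMA4 averaged 6.25 and 6.55 CPM, and LAMC3 2.83 and 3.89 CPM.

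The untreated libraries of the next comparisons belong to those that chose LAMA5 and COL27A1, so the values of these genes are a description. Exposure to a compound moved none of the other 5 genes past the threshold in either medium. Over 70 comparisons of an exposed with an untreated group, log2 fold changes of the 7 genes ran from -0.55 to 0.74. For the other 5 genes the smallest adjusted p was 0.409, for LAMC1 with hemin in Medium 1 (0.24). An unadjusted p under 0.05 was found for LAMC1 with kynurenine and LAMB3 with hemin and kynurenine, both in Medium 1. In Medium 2 it was found for LAMB1 with hemin. In Medium 1 the 5 values of LAMA5 ran from -0.53 with butyrate to -0.21 with kynurenine, which share 1 set of untreated libraries, and in Medium 2 from -0.34 with hemin and kynurenine to 0.19 with butyrate. LAMC1 in Medium 1 ran from 0.12 with butyrate to 0.44 with kynurenine, and in Medium 2 from -0.14 to 0.03. COL27A1 ran from 0.01 to 0.23 in Medium 2 and from -0.15 to 0.24 in Medium 1. Few genes of the whole table passed. In Medium 2 they were 0% of tested genes with butyrate, 0% with hemin, 0.0266% with kynurenine, 0.0177% with kynurenic acid and 0.558% with hemin and kynurenine. In Medium 1 they were 0.00885% with butyrate, 0.133% with hemin, 0.0354% with kynurenine, 0% with kynurenic acid and 0.0266% with hemin and kynurenine.

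**Figure D4:**
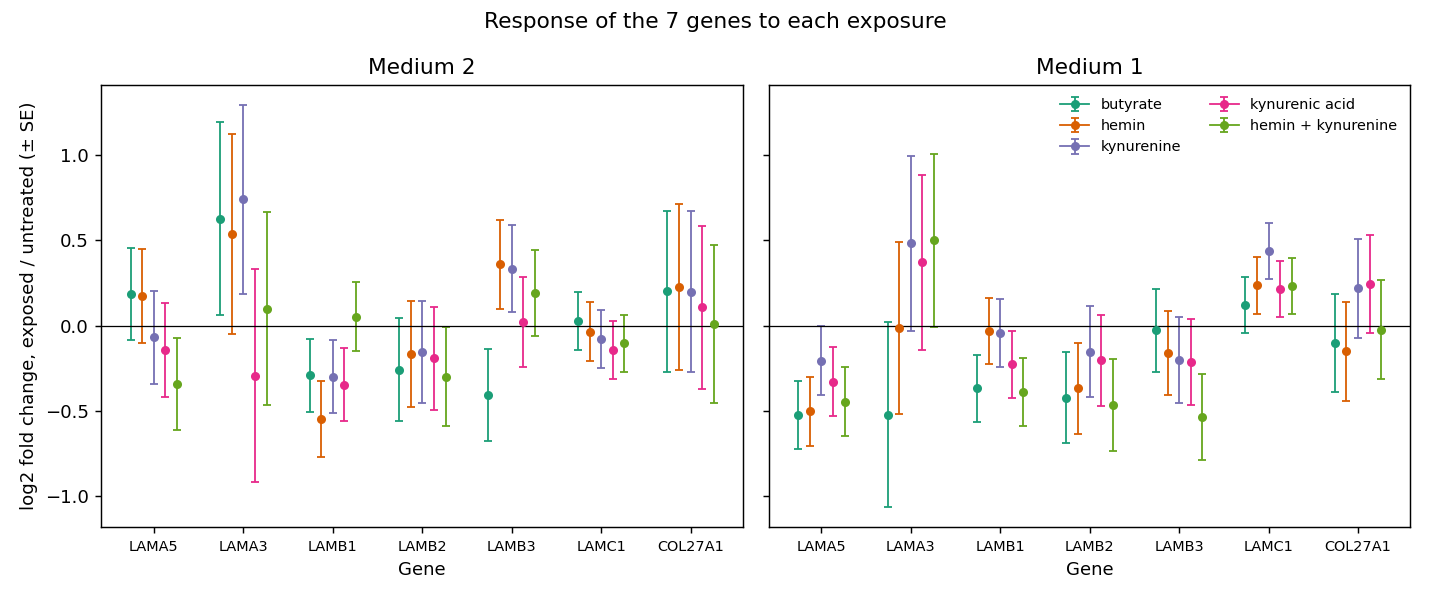
Log2 fold change of exposed over untreated spheroids (± SE) for the 7 genes, in Medium 2 (left) and Medium 1 (right), with 1 colour for each exposure. All 70 values lie between -0.55 and 0.74. Apart from LAMA5 and COL27A1, whose values are a description, no gene passed the threshold. LAMA3, the gene with the fewest counts in Medium 1, has the widest bars.

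The difference of each exposure's medium effect from that of untreated spheroids was tested as an interaction. Of 25 values of the other 5 genes 0 passed and 2 had an unadjusted p under 0.05 (smallest adjusted p = 0.431), where 0% of all genes passed with butyrate, 0% with hemin, 0.0177% with kynurenine, 0% with kynurenic acid and 0.0266% with both. LAMA5 and COL27A1 were chosen partly on the untreated difference, so their values are a description. A positive value means a smaller fall in Medium 2 than in untreated spheroids. For LAMA5 the values were 0.71 with butyrate and 0.68 with hemin (SE 0.34 each). With kynurenine, kynurenic acid, and hemin and kynurenine together they were 0.14, 0.19 and 0.10 (SE 0.34 to 0.35). In the same order of exposures, the COL27A1 values were 0.30, 0.38, -0.02, -0.14 and 0.03 (SE 0.55 to 0.68).

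Kynurenic acid is made from kynurenine by transamination and ring closure, and both were given at 1 µM over the same days. Of 14 comparisons between them, 7 in each medium, 0 passed and 0 had an unadjusted p under 0.05, with 0.00885% of all genes passing in Medium 2 and 0.0354% in Medium 1. LAMA5 differed by -0.07 in Medium 2 (95% interval -0.63 to 0.48, adjusted p = 0.99) and by -0.12 in Medium 1 (-0.53 to 0.29, adjusted p = 1). COL27A1 differed by -0.09 in Medium 2 (-1.02 to 0.84) and by 0.02 in Medium 1 (-0.54 to 0.59). The widest interval was that of LAMA3 in Medium 2, -2.18 to 0.11 around a value of -1.04.

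Other genes of the laminin and collagen pathway were read from lists that hold none of the 7, over the averaged exposures. Of 5 further laminin chains, LAMA1 and LAMB4 did not pass the filter on low counts. LAMA2, the alpha-2 chain known from muscle basement membrane, rose to 34.7 ± 9.25 CPM in Medium 2, against 24.3 ± 4.98 CPM in Medium 1 (SD, n = 25 each), a log2 fold change of 0.51 (adjusted p = 1.55e-05, SE 0.10). LAMA4 had a value of -0.03 (adjusted p = 0.905) and LAMC3 one of -0.50 (adjusted p = 0.0651). The LAMC3 value passed without the library of well H1, G2, C4, F5, A6 or F6 (adjusted p 0.0331 to 0.0455), with library totals (0.02) and with only the groups compared (0.0493).

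Among laminin receptors and genes of the hemidesmosome, which anchors epithelial cells to the basement membrane, 13 of 15 were tested, 2 rose, 3 fell and 8 did not pass. Beside these and the next list counts stand the 21.7% of all tested genes that rose and the 21.8% that fell in the same average. The cell surface proteoglycan gene SDC4 rose by 0.51 (adjusted p = 1.61e-10) and dystroglycan, DAG1, by 0.30 (adjusted p = 0.00298, and 0.0521 with scaling by library totals alone). DST, which encodes the hemidesmosomal linker dystonin, stood at 154 ± 56.6 CPM in Medium 2 and 260 ± 55.8 CPM in Medium 1 (SD, n = 25 each), a log2 fold change of -0.77 (adjusted p = 1.74e-08). The integrin chains ITGA2 and ITGA3 fell by 0.28 and 0.18 (adjusted p = 0.000511 and 0.0456), and ITGA3 lost its call in 24 of 50 fits that left out 1 library, without a filter (0.0845) and with plate row (0.0596). The other integrin chains tested, ITGA6, ITGA7, ITGB1 and ITGB4, had values of -0.08, -0.17, -0.04 and -0.15 that did not pass. The list's median was -0.08.

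Of 20 other basement membrane components, 9 were tested, 0 rose, 5 fell and 4 did not pass, with a median of -0.26. The collagen IV chains COL4A5 and COL4A4 fell by 0.79 and 0.65 (adjusted p = 4.63e-09 and 2.33e-05), and the extracellular matrix gene FRAS1 by 0.48 (adjusted p = 0.000123). AGRN, the proteoglycan agrin, and COL18A1 fell by 0.33 and 0.26, and COL18A1 lost its call in 24 of 50 fits that left out 1 library and with plate row (adjusted p = 0.0588). Of 10 other fibrillar collagens only COL1A1 was tested. It stood at 3.92 ± 2.17 CPM in Medium 2 and 9.14 ± 2.57 CPM in Medium 1 (SD, n = 25 each). The log2 fold change was -1.21 (adjusted p = 1.03e-07, SE 0.18). COL1A1 passed the filter on low counts mainly through Medium 1, where it was higher.

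Of 23 genes that modify, secrete or crosslink collagen, 14 were tested, 3 rose, 2 fell and 9 did not pass, with a median of -0.06. FKBP10, a collagen chaperone of the endoplasmic reticulum, stood at 1.5 ± 1.12 CPM in Medium 2 and 7.03 ± 2.9 CPM in Medium 1 (SD, n = 25 each). Its log2 fold change was -2.21 (adjusted p = 3.72e-11, SE 0.24), and it was lower with each of the 5 exposures. With few counts in Medium 2, FKBP10 passed the filter on low counts mainly through Medium 1, where it was higher. The prolyl hydroxylase gene P4HA2 fell by 0.52 (adjusted p = 0.000416). LOXL1, CRTAP and COLGALT1 rose by 0.30, 0.20 and 0.18 (adjusted p = 0.0307, 0.0448 and 0.0253), calls lost in 5, 30 and 2 of 50 fits that left out 1 library and with scaling by library totals alone (adjusted p = 0.209, 0.416 and 0.452). CRTAP also lost its call under another 5 of the 8 settings (adjusted p 0.0504 to 0.0691). Of 17 matrix proteases and inhibitors 9 were tested, 1 rose, 2 fell and 6 did not pass. The urokinase receptor gene PLAUR rose by 0.71 (adjusted p = 8.28e-11), while the membrane protease gene MMP15 and the inhibitor TIMP3 fell by 0.47 and 0.30 (adjusted p = 0.0019 and 0.0189).

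**Figure D5:**
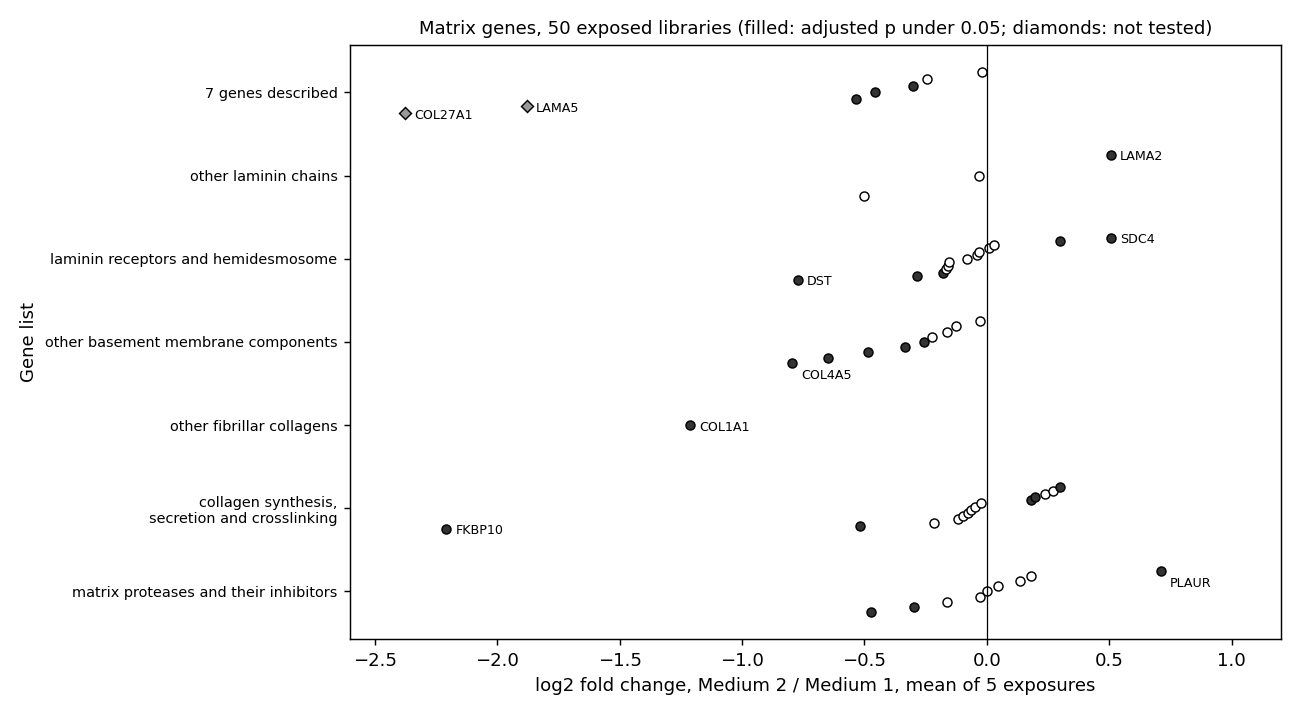
Log2 fold change of Medium 2 over Medium 1, averaged over 5 exposures, for the 7 genes and 6 lists of matrix genes, 1 point for each tested gene, filled where the adjusted p was under 0.05, with LAMA5 and COL27A1 as grey diamonds. COL27A1, FKBP10, LAMA5 and COL1A1 have the lowest values, -2.38, -2.21, -1.88 and -1.21, and PLAUR has the highest, 0.71.

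The profile most like that of COL27A1 over the 12 group means, each centred on its own mean of log2 CPM, was that of LAMA5, with a root mean square difference of 0.24 among 8462 genes with a mean of at least 10 CPM over all 60 libraries. Both genes were chosen for a fall in Medium 2, which bears on this likeness, and it is a description. GOLGA8B, VPS13A, GOLGA8A and GOLGA6L9 followed at 0.26 to 0.31. For LAMA5 the nearest among 8461 were VPS13A, which encodes a lipid transfer protein, at 0.22, then NBPF14, HERC2P2, GOLGA6L9 and NBPF19 at 0.24 to 0.31. VPS13A averaged 12.8 CPM in Medium 2 and 41.6 CPM in Medium 1 over all 60 libraries. GOLGA8B averaged 4.7 CPM in Medium 2 and 28.3 CPM in Medium 1, so it reached the floor through Medium 1. The same holds for GOLGA8A (4.9 and 26.3 CPM), GOLGA6L9 (4.34 and 16.3), NBPF19 (5.22 and 16.2) and HERC2P2 (7.69 and 24.2). The GOLGA, NBPF and HERC2P2 values are uncertain because these genes have near-identical copies.

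Genes that overlap the 7 were read beside them. ADRM1, which encodes a ubiquitin receptor of the proteasome, runs on the opposite strand and shares 908 bp with the 3' end of LAMA5. ADRM1 had an averaged log2 fold change of 0.18 (adjusted p = 0.051), which passed with plate row (0.0401), with limma voom (0.0415) and in 16 of 50 fits that left out 1 library, and rose by 0.67 with hemin and kynurenine (adjusted p = 0.00387), the opposite sign to LAMA5. DLD, a subunit of mitochondrial dehydrogenase complexes, shares 7932 bp with LAMB1 on the opposite strand and had a value of -0.01 (adjusted p = 0.877). The strand setting of the counting is not given in the sources used here, and reads from such shared ends may not be told apart. The annotation also places LAMA5-AS1 and MIR4758 within LAMA5, RPL23AP77 within LAMA3, AC005046.1 and RF00012 within LAMB1, MIR4260 within LAMB3, LAMC1-AS1 within LAMC1 and MIR455 within COL27A1.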

How the data were processed

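RNA of HCT116 spheroids was measured in 60 libraries, 5 in each of 12 groups taken from the sample titles. Per the labels' protocols, libraries were made from 48 ng of RNA with the QuantSeq 3' FWD kit, molecular identifiers and 18 PCR cycles. The table deposited by the authors holds estimated counts per gene, made on GRCh38 with Salmon 1.5.2, STAR, cutadapt 3.4, UMI-tools 1.1.2 and FastQC 0.11.9, per the submitters' processing notes, which give no order or settings. Of these values 10.1% were not whole and were rounded. Library totals had a median of 1901981 counts, which limits precision for genes at a few CPM, above all COL27A1 in Medium 2. No 2 libraries of a group were alike within sampling noise (chi-square per degree of freedom 2.27 to 21.5 over 120 pairs), and each counted as 1 replicate. The columns carry wells but no replicate numbers, so libraries are named by well.

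Genes were kept by filterByExpr (minimum count 10, minimum total 15), which held 99.62% of counts. One quasi-likelihood model with 12 group means and TMM scaling was fitted over all 60 libraries (R 4.3.3, edgeR 4.0.16, 48 residual degrees of freedom, common dispersion 0.0316), with two-sided tests and Benjamini-Hochberg adjustment over 11298 genes at 0.05. Each standard error is the size of the log2 fold change divided by the root of its F value. Alternatives were RLE scaling, library totals, no filter, plate row, DESeq2 1.42.0, limma 3.58.1 with voom, only the compared groups, and leaving out libraries. The genes and lists were chosen with earlier results of these data known. For that reason the planned tests of LAMA5 and COL27A1 between media and against untreated spheroids are given without p-values. Named besides the 7 genes were genes overlapping them, the 5 nearest profiles to LAMA5 and to COL27A1, measured laminin chains, and up to 3 rises and 3 falls past the threshold in each list, with other list members named after their values were seen. Some genes that this rule names are not reported here.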

Additional observations from a re-analysis of the deposited data

Results flagged for a closer look

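In 84 tests, 7 genes in 12 groups of 5 libraries, the highest or lowest library stood apart from its group by a gap of more than 0.71 of the group's range in 5 cases. Chance alone marks about 1 in 20 groups. LAMA5 had 25.2 CPM in well G3, a Medium 1 library with kynurenic acid, where the other 4 lay between 41.7 and 48.3. LAMA3 had 8.4 CPM in well G5, a Medium 2 library with butyrate, where the others lay between 2.71 and 3.26. LAMB2 had 15 CPM in well G4, an untreated Medium 2 library, where the others lay between 7.26 and 8.64, and 6.21 CPM in well F3, a Medium 1 library with kynurenic acid, where the others lay between 13.2 and 15.6. LAMC1 had 24 CPM in well H7, a Medium 2 library with hemin and kynurenine, where the others lay between 35 and 37. The causes were not tested.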

How the results depend on the processing

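LAMA5 and COL27A1, which were chosen for it, were lower in Medium 2 with each of 5 exposures and in their average, under all 8 other settings and without any 1 library. Their averaged log2 fold changes ran from -1.99 to -1.85 and from -2.49 to -2.37 over the settings, and from -1.92 to -1.83 and from -2.47 to -2.33 without 1 library. LAMB1, LAMB2 and LAMC1 kept their averaged calls throughout. No paired analysis was possible because the columns of the table carry no replicate numbers.

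With kynurenine, LAMB1 and LAMC1 both lost their calls without a filter, with plate row and without wells B2 and A7. Both calls were also lost with limma voom, with only the groups compared, and without the library of well A3, C3, D3, G6 or A7. In the main fit these were 2 of the other 5 genes, where 4.28% of all tested genes were lower. The averaged value of LAMB3 turned to 0.02 (0.0165) and that of DLD to 0.02 without wells B2 and A7, and they ran from -0.073 to 0.0262 and from -0.03 to 0.00915 without 1 library. That of LAMA4 ran from -0.134 to 0.0271 without 1 library.

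Library totals moved the median of all genes over the averaged exposures to -0.12, beside -0.01 with TMM. With them 3896 genes were lower and 1247 higher over the averaged exposures, beside 2467 and 2447. Counts lower and higher were 716 and 164 untreated, 2330 and 725 with hemin, 917 and 179 with kynurenic acid and 1542 and 415 with hemin and kynurenine, and 295 were higher with butyrate and 248 with kynurenine. With only the groups compared, 558 were higher untreated, 321 lower and 321 higher with butyrate, and 205 lower and 143 higher with kynurenine. With plate row 400 were lower and 328 higher with butyrate. Without 1 library the counts ran from 393 to 649 lower and 299 to 578 higher with butyrate, 935 to 1664 higher with hemin, 318 to 504 higher with kynurenic acid, and 602 to 989 lower and 552 to 951 higher with hemin and kynurenine.

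Of the lists, 6 receptor genes were lower and 1 higher with library totals, and 5 lower without wells B2 and A7. Among collagen-processing genes 6 were lower and 0 higher with library totals, and 1 to 4 higher without 1 library. Without a filter 2 fibrillar collagens and 4 proteases or inhibitors were lower. Of proteases and inhibitors 2 were higher without wells B2 and A7, and 1 to 2 without 1 library, with 2 on leaving out well B2 or H6. In the other laminin chains 1 was lower with library totals and with only the groups compared, and 0 to 1 without 1 library. The causes were not tested.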
